A study of Mus musculus with 13 samples.

Results

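MHC class I molecules display peptides from the inside of a cell to CD8+ T cells. The proteasome cuts proteins into peptides, the transporter Tap1-Tap2 carries these into the endoplasmic reticulum, Tapbp (tapasin) holds the transporter and the empty class I molecule together, and the loaded heavy chain travels to the surface with the light chain B2m. Psmb8, Psmb9 and Psmb10 are the inducible catalytic subunits of the immunoproteasome, which take the places of Psmb5, Psmb6 and Psmb7, and Nlrc5 is a transactivator of class I genes. Lymphocytes express this pathway at rest, and interferon gamma is its best known inducer. The 10 genes described here are B2m, the heavy chain genes H2-K1 and H2-D1, Tap1, Tap2, Tapbp, Psmb8, Psmb9, Psmb10 and Nlrc5. They were chosen by name, as all probe sets that carry 1 of these symbols, and make up 27 of the 45101 probe sets on the array and 10 of the 18193 genes tested.

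RNA was measured on 13 oligonucleotide arrays, whose small number sets the precision. All mice were P14 T cell receptor transgenic on a C57Bl/6 background, so most of their CD8+ T cells carry a single receptor, which recognises a viral peptide on H-2Db, the product of H2-D1. The groups were Batf-/- CD8+ T cells at day 3 (4 arrays), wild-type cells at day 3 (4 arrays), Batf-/- naive cells at day 0 (3 arrays) and wild-type naive cells at day 0 (2 arrays). Day 3 cells, called in vitro effector cells in the labels, had received plate-bound anti-CD3 and anti-CD28 together with recombinant human IL-2 (100 U/ml). Batf encodes a basic leucine zipper factor that binds AP-1 elements with Jun partners. Its log2 intensity was between 5.56 and 6.77 in the Batf-/- arrays, against 8.63 to 9.36 in the wild-type arrays. Whether arrays of a group stem from different mice or cultures is not stated in the labels. The p-values therefore rest on the spread between these arrays, which may be technical.

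T cell markers were high in every array. The mean log2 intensity of 9 T cell markers was 11.64 to 11.74 in Batf-/- day 3 arrays, 11.66 to 11.78 in wild-type day 3 arrays, 11.40 to 11.92 in Batf-/- naive arrays and 11.82 to 11.94 in wild-type naive arrays. The naive preparations also held RNA of other cell types. The mean of 9 B cell markers was 4.55 to 4.78 at day 3 in Batf-/- arrays and 4.63 to 4.73 in wild-type arrays, against 6.71 to 7.21 in Batf-/- naive and 6.04 to 6.48 in wild-type naive arrays. Batf-/- naive replicate 1 stood apart with the highest neutrophil mean over 8 markers, 7.72, against 4.56 and 5.46 in the other Batf-/- naive arrays, and with the lowest T cell mean, 11.40. In preparations of mixed cells, fewer cells of a type and less RNA per cell cannot be told apart.

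The loci and probe sets differ in ways that bear on the values. In GRCm38.p6, 7 of the 10 genes lie in the MHC region of chromosome 17, 2 (Psmb10 and Nlrc5) on chromosome 8, and B2m on chromosome 2. Psmb9 (chr17:34182030-34187330, minus strand), Tap1 (chr17:34187556-34197225, plus strand), Psmb8 (chr17:34198195-34201454) and Tap2 (chr17:34204479-34216321) follow each other within 34292 bases. H2-D1 has 9 probe sets, H2-K1 4, Tap1 4, and B2m, Tapbp and Psmb8 have 2 each, while the other genes have 1. Probe sets whose names end in x hold probes that also match other sequences, and the class I heavy chains are very alike, so most H2-K1 and H2-D1 probe sets can pick up their relatives. A further 3 probe sets are assigned to a member and to another gene at once and were not used. Of the 27 probe sets, 3 (2 of Tap1 and 1 of H2-D1) were dim, with a mean log2 intensity below 4.35, the limit of the lowest 40% of all probe sets. The probe sets used for the genes were bright. Only 0.175% of probe sets were brighter than that of B2m, 0.392% than that of H2-K1 and 0.423% than that of H2-D1.

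Windows upstream of the annotated starts are shown for genes that rose together with stimulation (Psmb9 and Tap1, which share theirs, and Psmb8), for a gene that fell (Psmb10) and for the heavy chain gene that presents the P14 peptide (H2-D1). They come from RefSeq, GRCm38.p6, where 8 of the 10 genes had an entry. Capitals mark matches, on either strand, to an IRF element (GAAA, 2 bases of any kind, GAAA), a STAT element (TTCNNNGAA), an AP-1 element (TGANTCA), an NF-kB element (GGG, 2 bases of any kind, TTCCC) or a CCAAT box (CCAAT). No motif overlapped another in these windows.
Psmb9-Tap1 interval (chr17:34187331-34187555, plus strand, the 225 bases between both starts): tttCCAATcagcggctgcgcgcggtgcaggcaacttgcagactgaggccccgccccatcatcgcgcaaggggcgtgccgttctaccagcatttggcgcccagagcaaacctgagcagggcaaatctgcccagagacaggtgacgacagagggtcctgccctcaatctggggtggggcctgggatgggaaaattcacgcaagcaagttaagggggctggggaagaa
Psmb8 (chr17:34197945-34198194, plus strand): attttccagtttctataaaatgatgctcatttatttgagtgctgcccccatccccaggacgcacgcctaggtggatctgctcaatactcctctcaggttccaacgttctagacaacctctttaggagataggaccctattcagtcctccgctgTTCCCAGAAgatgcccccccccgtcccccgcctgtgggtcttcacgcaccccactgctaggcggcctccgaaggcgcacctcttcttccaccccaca
Psmb10 (chr8:105938393-105938642, minus strand): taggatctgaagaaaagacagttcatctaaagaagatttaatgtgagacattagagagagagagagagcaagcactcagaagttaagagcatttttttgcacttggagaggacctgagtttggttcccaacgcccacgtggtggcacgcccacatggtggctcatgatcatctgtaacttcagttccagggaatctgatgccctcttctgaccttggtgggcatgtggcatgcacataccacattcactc
H2-D1 (chr17:35262844-35263093, plus strand): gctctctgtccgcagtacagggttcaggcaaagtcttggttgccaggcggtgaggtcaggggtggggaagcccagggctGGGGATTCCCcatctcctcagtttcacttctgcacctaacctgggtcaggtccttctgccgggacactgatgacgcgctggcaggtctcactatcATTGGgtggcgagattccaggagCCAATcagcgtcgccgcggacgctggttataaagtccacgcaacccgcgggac
The interval between Psmb9 and Tap1 held a CCAAT box, which 34.5% of 27025 windows of 250 bases upstream of genes hold. The Psmb8 window held a STAT element (7.18% of windows), and the Psmb10 window held none of the 5 motifs. The H2-D1 window held an NF-kB element (1.44% of windows) and CCAAT boxes on both strands. The AP-1 element, found in 6.87% of windows, and the IRF element, found in 3.04%, were in none of the windows shown. Among the windows of the 8 genes, that of B2m held an IRF element and that of H2-K1 an NF-kB element, and none held an AP-1 element. The B2m and H2-K1 windows overlap annotated genes and are not printed. Only the exact patterns given were searched, so other forms of these elements are not marked. A match is a description of the sequence, and no binding was measured.

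The comparison of day 3 with naive cells asks how the pathway changes with stimulation in each genotype. The members moved in different directions. Tap1, Psmb9 and Psmb8 rose, and Tapbp, Psmb10 and H2-K1 fell, in both genotypes. H2-D1 fell in Batf-/- cells by a small amount, and B2m, Tap2 and Nlrc5 did not pass in either genotype. Of the 10 genes 7 passed in Batf-/- cells, 3 higher and 4 lower, where 47% of all genes passed. In wild-type cells 6 passed, 3 higher and 3 lower, where 45.4% of all genes passed. With so many genes changed by stimulation, these counts alone do not set the members apart. The median change of the members was -0.14 in Batf-/- and -0.05 in wild-type cells, against 0.05 and 0.05 over all genes. A gene counts as passed with a Benjamini-Hochberg adjusted p below 0.05 in limma, and all changes are log2 differences with their standard error.

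**Figure D1:**
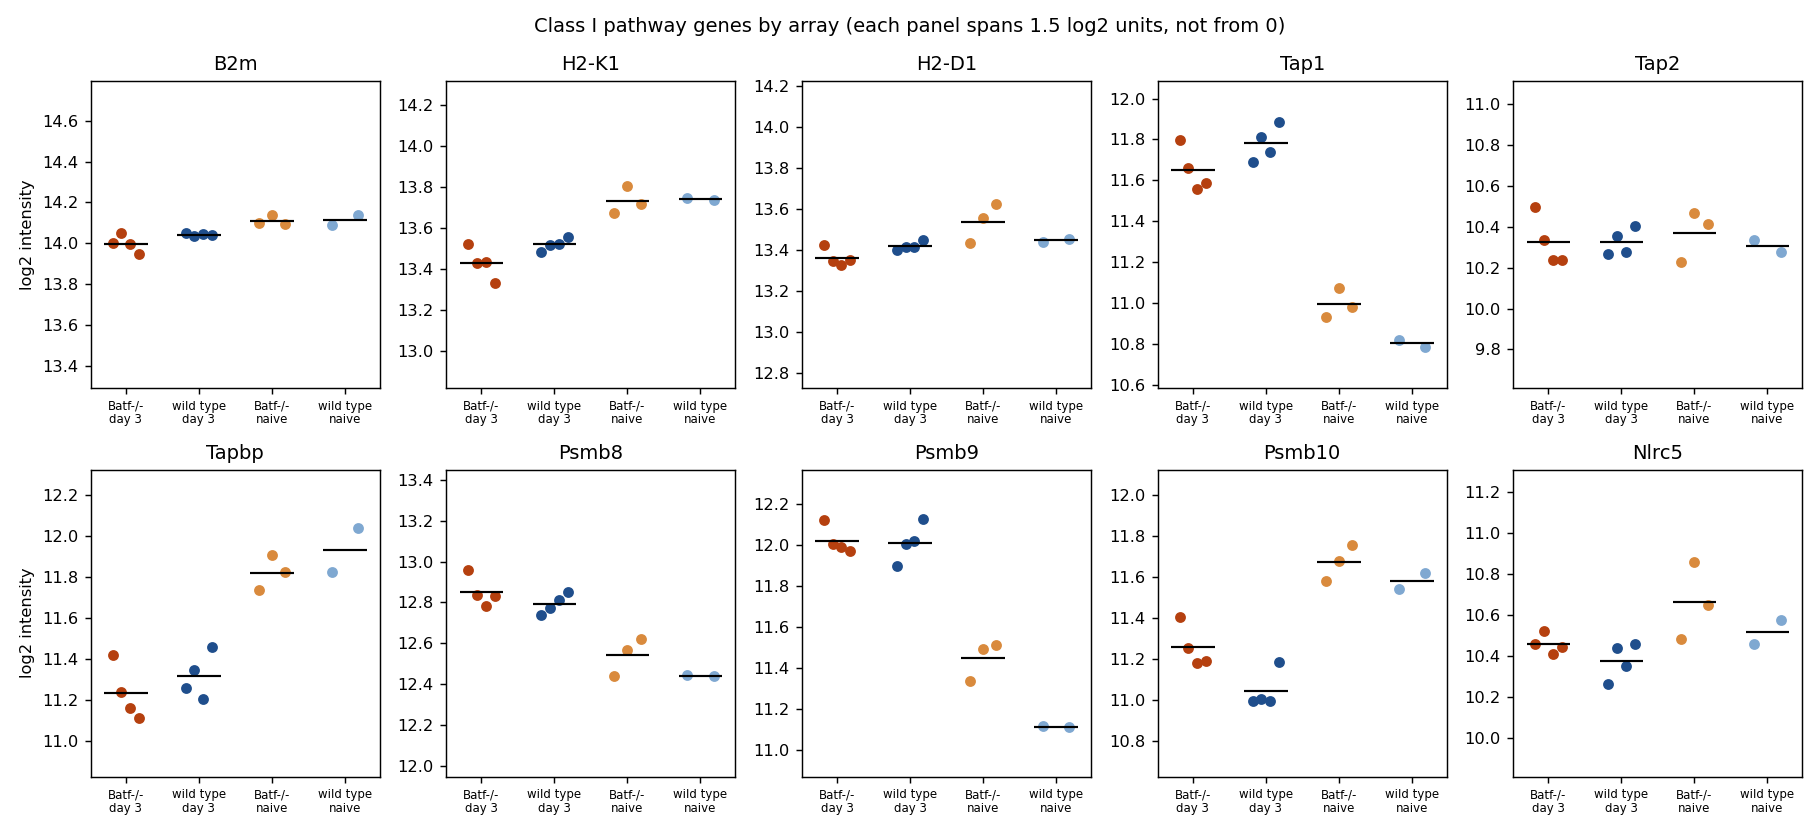
Log2 intensity of the probe set used for each of the 10 genes, by array, in Batf-/- and wild-type cells at day 3 and in naive cells; points are arrays, bars are group means, and each panel spans the same range of log2 units. Tap1, Psmb9 and Psmb8 sit higher at day 3 than in naive arrays, Tapbp and Psmb10 lower, and the genotypes lie close to each other at day 3.

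Tap1, which forms the peptide transporter with Tap2, had the largest rise of the 10 genes in both genotypes. In Batf-/- cells its log2 intensity was 11.80, 11.66, 11.56 and 11.59 at day 3, against 10.93, 11.07 and 10.98 in naive arrays. In wild-type cells it was 11.69, 11.81, 11.74 and 11.88 at day 3, against 10.82 and 10.79 in naive arrays. Day 3 and naive arrays did not overlap in either genotype. The change was 0.66 ± 0.07 in Batf-/- cells (1.58-fold, limma, adjusted p = 5.04e-06) and 0.98 ± 0.08 in wild-type cells (1.97-fold, limma, adjusted p = 4.68e-07). A second Tap1 probe set, less bright, rose by 0.52 ± 0.08 in Batf-/- cells and 0.63 ± 0.10 in wild-type cells, and the 2 dim ones did not pass. Tap2, the other subunit of the transporter, was at -0.04 ± 0.08 in Batf-/- cells (95% interval -0.22 to 0.13) and 0.02 ± 0.09 in wild-type cells (95% interval -0.17 to 0.22). Its intervals reach neither a rise nor a fall of the size seen for Tap1.

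Psmb9, which replaces Psmb6 in the immunoproteasome, rose beside its neighbour Tap1. In Batf-/- cells it was at 12.12, 12.00, 11.99 and 11.97 at day 3, against 11.33, 11.49 and 11.51 in naive arrays. In wild-type cells it was at 11.90, 12.00, 12.02 and 12.13 at day 3, against 11.12 and 11.11 in naive arrays. No day 3 array overlapped with a naive array of its genotype. The change was 0.58 ± 0.07 in Batf-/- cells (1.49-fold, limma, adjusted p = 1.23e-05) and 0.90 ± 0.08 in wild-type cells (1.86-fold, limma, adjusted p = 7.24e-07). Psmb8, which replaces Psmb5, rose less, by 0.31 ± 0.06 in Batf-/- cells (limma, adjusted p = 0.00116) and 0.35 ± 0.07 in wild-type cells (limma, adjusted p = 0.00116). It lay between 12.78 and 12.96 in Batf-/- day 3 arrays and between 12.44 and 12.62 in Batf-/- naive arrays. In wild-type arrays it lay between 12.74 and 12.85 at day 3 and at 12.44 in both naive arrays. The second Psmb8 probe set passed in Batf-/- cells (0.22 ± 0.08) and not in wild-type cells (0.09 ± 0.09).

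Psmb10, which replaces Psmb7, went the other way. In Batf-/- cells it was at 11.41, 11.25, 11.18 and 11.19 at day 3, against 11.58, 11.68 and 11.76 in naive arrays. In wild-type cells it was at 10.99, 11.01, 10.99 and 11.19 at day 3, against 11.54 and 11.62 in naive arrays. All day 3 arrays were below all naive arrays. The change was -0.41 ± 0.08 in Batf-/- cells (1.33-fold lower, limma, adjusted p = 0.000433) and -0.54 ± 0.09 in wild-type cells (1.45-fold lower, limma, adjusted p = 0.000146). The constitutive partners did not mirror their inducible counterparts in a uniform way. Psmb7, the partner of Psmb10, rose by 0.49 ± 0.08 in Batf-/- and 0.68 ± 0.09 in wild-type cells. Psmb5, the partner of Psmb8, fell in wild-type cells (-0.29 ± 0.07) and was at -0.17 ± 0.07 in Batf-/- cells without passing. Psmb6, the partner of Psmb9, rose in Batf-/- cells (0.27 ± 0.06) and was at 0.04 ± 0.07 in wild-type cells without passing.

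Tapbp, which links the transporter to the empty heavy chain, fell in both genotypes. In Batf-/- cells it was at 11.42, 11.24, 11.16 and 11.11 at day 3, against 11.73, 11.91 and 11.82 in naive arrays. In wild-type cells it was at 11.26, 11.35, 11.20 and 11.46 at day 3, against 11.82 and 12.04 in naive arrays. The groups did not overlap. The change was -0.59 ± 0.09 in Batf-/- cells (limma, adjusted p = 0.000103) and -0.61 ± 0.10 in wild-type cells (limma, adjusted p = 0.000216). The dimmer of the 2 Tapbp probe sets did not pass, at -0.25 ± 0.12 in Batf-/- and 0.08 ± 0.14 in wild-type cells, so that the fall rests on the brighter one. With the mean of both, the wild-type change was -0.27 and did not pass (limma, adjusted p = 0.0656).

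**Figure D2:**
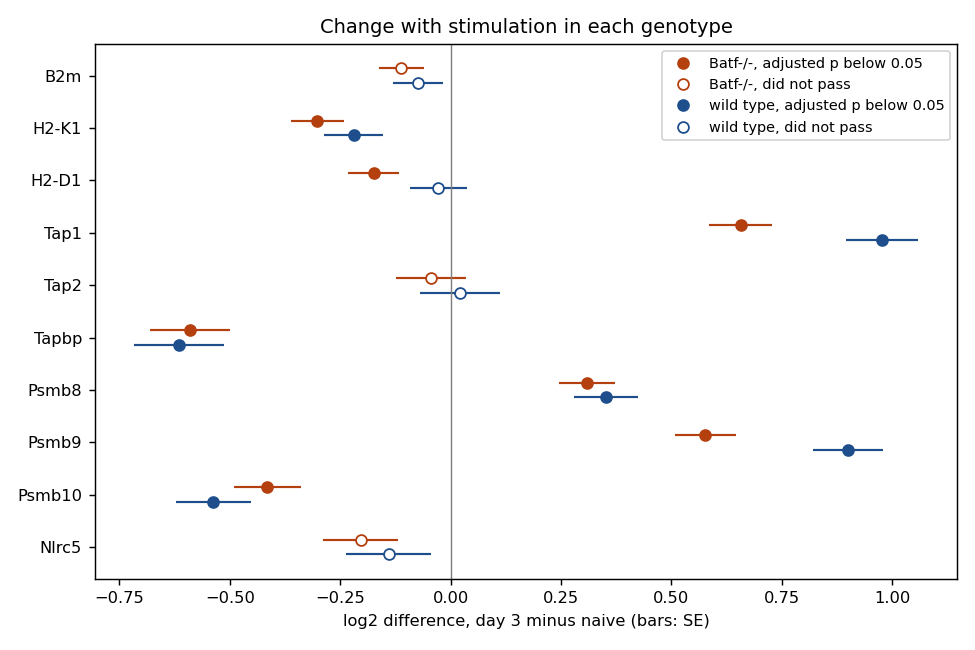
Log2 difference, day 3 minus naive, of the 10 genes in Batf-/- cells and in wild-type cells; points are estimates, bars are standard errors, and open points did not pass. Tap1 and Psmb9 have the largest rises, 0.66 and 0.58 in Batf-/- and 0.98 and 0.90 in wild-type cells, and Tapbp the largest fall.

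The heavy and light chains moved little. H2-K1 was at 13.52, 13.43, 13.43 and 13.33 in Batf-/- day 3 arrays, against 13.67, 13.81 and 13.72 in Batf-/- naive arrays. It was at 13.48, 13.52, 13.52 and 13.56 in wild-type day 3 arrays, against 13.74 and 13.73 in wild-type naive arrays. The groups did not overlap in either genotype. H2-K1 fell by 0.30 on the log2 scale in Batf-/- cells (SE 0.06, limma, adjusted p = 0.000826) and by 0.22 in wild-type cells (SE 0.07, limma, adjusted p = 0.0165). The wild-type call was lost without wild-type naive replicate 1 (limma, adjusted p = 0.0802) and without wild-type naive replicate 2 (limma, adjusted p = 0.0711). All 4 H2-K1 probe sets passed lower in Batf-/- cells, from -0.63 to -0.20, and 2 of 4 in wild-type cells, where they ranged from -0.45 to -0.01.

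H2-D1 was at 13.42, 13.34, 13.33 and 13.35 in Batf-/- day 3 arrays, against 13.43, 13.55 and 13.62 in Batf-/- naive arrays. It was at 13.40, 13.41, 13.42 and 13.45 in wild-type day 3 arrays, against 13.44 and 13.45 in wild-type naive arrays. In Batf-/- cells the groups did not overlap by a margin of about the last digit given, and in wild-type cells they overlapped. The change was -0.17 ± 0.06 in Batf-/- cells (limma, adjusted p = 0.0231) and -0.03 ± 0.06 in wild-type cells (limma, adjusted p = 0.762), and the difference between these changes did not pass (-0.15 ± 0.09, limma, adjusted p = 0.55). The Batf-/- call was lost without Batf-/- naive replicate 2 (-0.17) or 3 (-0.13), and without Batf-/- day 3 replicate 2 (-0.17), 3 (-0.16) or 4 (-0.17), with adjusted p between 0.0501 and 0.108 in limma. The H2-D1 probe sets disagreed. Of 9, 5 passed lower in Batf-/- cells, and in wild-type cells none passed lower and 1 passed higher (0.48 ± 0.12), a dimmer probe set with shared probes.

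B2m, the light chain, was at 13.95 to 14.05 in Batf-/- day 3 arrays, 14.03 to 14.05 in wild-type day 3 arrays, 14.09 to 14.14 in Batf-/- naive arrays and 14.09 to 14.14 in wild-type naive arrays. Day 3 arrays were below naive arrays without overlap, but the change was small and did not pass, at -0.11 ± 0.05 in Batf-/- cells (limma, adjusted p = 0.086) and -0.07 ± 0.06 in wild-type cells (limma, adjusted p = 0.327). Nlrc5, the transactivator, was at 10.41 to 10.52 in Batf-/- day 3 arrays, 10.26 to 10.46 in wild-type day 3 arrays, 10.48 to 10.86 in Batf-/- naive arrays and 10.46 to 10.57 in wild-type naive arrays. Its change was -0.20 ± 0.08 in Batf-/- cells (limma, adjusted p = 0.065) and -0.14 ± 0.10 in wild-type cells (limma, adjusted p = 0.264). Without Batf-/- naive replicate 1 it passed in Batf-/- cells (-0.29, limma, adjusted p = 0.00778). Over the 10 genes, day 3 and naive arrays did not overlap for 8 in each genotype, where that holds for 48.2% of all genes in Batf-/- and 58.3% in wild-type cells.

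**Figure D3:**
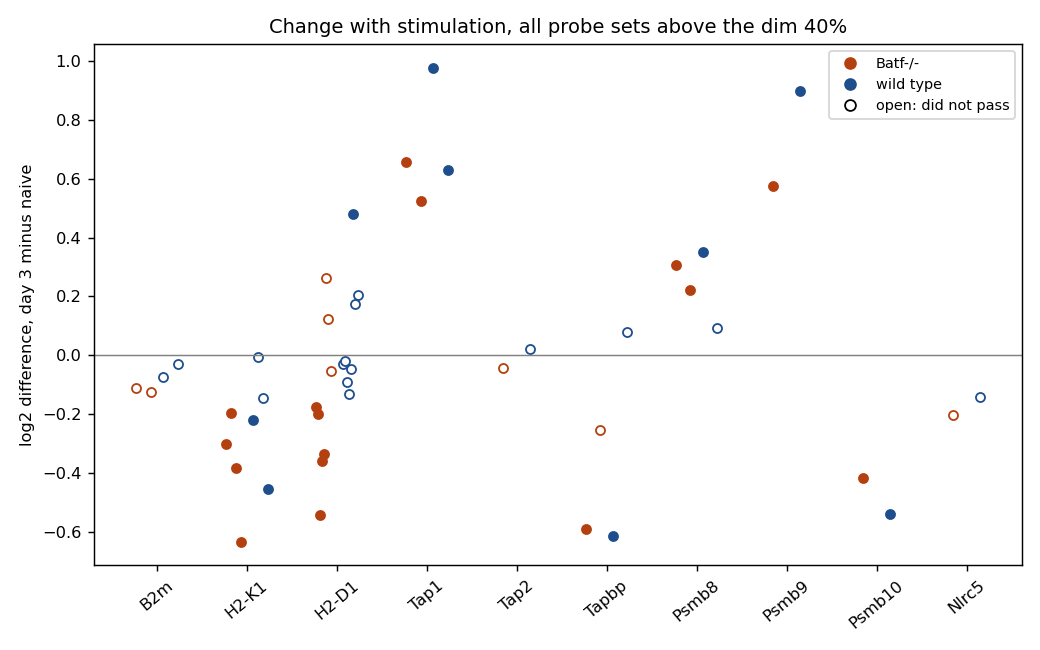
Log2 difference, day 3 minus naive, for each of the 24 probe sets of the members that were not dim, in Batf-/- cells and in wild-type cells; each point is a probe set, and open points did not pass. The Tap1 and Psmb8 probe sets lie above 0 in both genotypes, the H2-K1 probe sets below it, and those of H2-D1 on both sides.

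In the fit over all probe sets, 16 of the 27 passed in Batf-/- cells, where 38.3% of all probe sets did. They were 5 higher and 11 lower, against 18.5% and 19.8% of all probe sets. Of the 11 lower, 4 were of H2-K1 and 5 of H2-D1, most with shared probes. The count of lower probe sets therefore does not stand for as many separate genes. In wild-type cells 9 passed, where 38.6% did, 5 higher and 4 lower, against 17.9% and 20.8%. None of the 3 dim probe sets passed in either.

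The change with stimulation was compared between the genotypes, which asks whether Batf alters the response of these genes. None of the 10 passed (0.649% of all genes did). In limma 2 of the 10 had an unadjusted p under 0.05, as did 2159 of all 18193 genes. The 2 members were Psmb9 and Tap1, whose rises were smaller in Batf-/- cells by similar amounts. The difference was -0.32 ± 0.11 for Psmb9 (limma, adjusted p = 0.221) and -0.32 ± 0.11 for Tap1 (limma, adjusted p = 0.247). For both, the genotypes lay further apart in naive cells (0.33 and 0.19) than at day 3 (0.01 and -0.13). Among markers of other cell types, the difference of the changes passed below 0 for Cd22 (-1.42), Klra8 (-1.48) and the class II gene H2-Ob (-0.64). Their part in the Psmb9 and Tap1 differences was not tested. For Psmb10 the difference was 0.12 ± 0.11, and for the other 7 genes it was between -0.15 and 0.02.

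Batf-/- and wild-type cells were then compared at day 3, to see how loss of Batf bears on these genes after stimulation. None of the 10 genes and none of the 27 probe sets passed, where 1.37% of genes and 0.773% of probe sets did. In limma 1 gene, Psmb10, had an unadjusted p under 0.05, as did 2289 of all 18193 genes. For Psmb10, all 4 Batf-/- arrays were above wild-type replicates 1, 2 and 3, and the lowest of them overlapped with wild-type replicate 4. Its difference was 0.21 ± 0.07 (95% interval 0.06 to 0.36, limma, adjusted p = 0.187). For the other genes the differences lay between -0.13 for Tap1 and 0.08 for Nlrc5. Their 95% intervals went from -0.28 at the lowest (Tap1) to 0.25 at the highest (Nlrc5). The median was -0.02, against 0.01 over all genes. All day 3 groups of the 10 genes overlapped, where 12.8% of all genes had groups that did not.

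In naive cells none of the 10 genes passed either, where 1.08% of all genes did, and none of the 27 probe sets (0.739% of all). In limma 2 genes, Psmb9 and Tap1, had an unadjusted p under 0.05, as did 2468 of all 18193 genes. Psmb9 was at 11.33, 11.49 and 11.51 in Batf-/- naive arrays, against 11.12 and 11.11 in wild-type naive arrays. All Batf-/- arrays were above both wild-type arrays. The difference was 0.33 ± 0.08 (1.26-fold, 95% interval 0.15 to 0.51, limma, adjusted p = 0.0925). Without Batf-/- naive replicate 1 it was 0.39 and passed (limma, adjusted p = 0.0372). Tap1 was also higher without overlap, at 0.19 ± 0.09 (95% interval 0.00 to 0.38, limma, adjusted p = 0.357). Groups that do not overlap occur for 24.5% of all genes in this comparison of 3 and 2 arrays, and 2 of 10 is not above that. For the other members the differences were between -0.11 (Tapbp) and 0.15 (Nlrc5), and the median over the 10 was 0.09, against 0.00 over all genes.

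**Figure D4:**
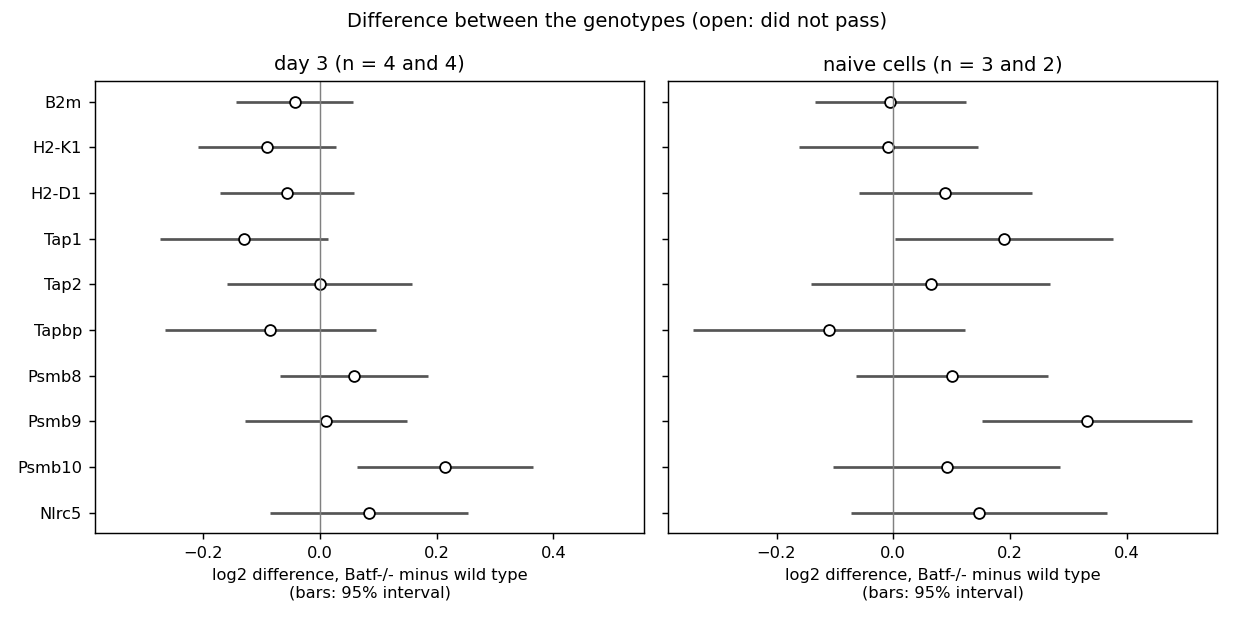
Log2 difference, Batf-/- minus wild type, of the 10 genes at day 3 and in naive cells; points are estimates and bars are 95% intervals, and no gene passed. The intervals exclude 0 without adjustment for Psmb10 at day 3 and for Psmb9 and Tap1 in naive cells.

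Other genes also had higher group means in Batf-/- than in wild-type naive arrays, not all in the array order of Psmb9 or Tap1. Among Batf-/- naive arrays, Psmb9 (11.33) and Tap1 (10.93) were lowest in replicate 1. The mean of the interferon gamma targets was highest in that array (9.90, against 9.59 and 9.54). Interferon gamma itself, Ifng, was at 6.44, 6.66 and 6.54 in Batf-/- naive arrays, against 5.70 and 5.90 in wild-type naive arrays, and passed higher (0.75 ± 0.09, limma, adjusted p = 0.00199). Like Psmb9 and Tap1, Ifng was lowest in replicate 1 among the Batf-/- naive arrays. Higher calls make up 0.813% of all genes in this comparison. With the naive groups fitted alone, 0 genes passed higher and 1 passed lower. The higher calls given here therefore depend on the spread shared with the day 3 arrays. Of 12 measured interferon gamma target genes 3 passed higher, Iigp1 (1.83), Igtp (0.59) and Cd274 (0.37), none lower, and the list median was 0.42, against 0.00 over all genes. Markers of other cell types were also higher in Batf-/- naive arrays. Of 9 B cell markers 3 passed higher (Cd22, Cr2 and Ebf1), with list means of 6.71 to 7.21, against 6.04 to 6.48 in wild type. Of 4 NK cell markers 1 did (Klra8), with list means of 7.20 to 8.48, against 6.64 and 6.79. Of 5 plasma cell markers 1 did (Tnfrsf17), with list means of 7.98 to 8.42, against 7.57 and 7.66. Of 9 MHC class II genes 2 did (H2-DMa and H2-DMb2), with list means of 9.41 to 9.86, against 9.06 and 9.18. Of 3 erythroid genes 1 did (Alas2, 1.21). The probe sets of Cr2, Ebf1, Klra8 and Tnfrsf17 were dim. B and NK cells carry class I molecules as well, and their part in the Psmb9 and Tap1 values was not tested. The means of these lists also fell with stimulation. That of class II genes fell to between 7.03 and 7.08 in Batf-/- and between 6.96 and 7.13 in wild-type day 3 arrays. The part of other cell types in the falls of H2-K1, Tapbp and Psmb10 was not tested. The same holds for the falls of all genes named in the paragraphs that follow.

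The rest of the pathway was read from gene lists, which were chosen with earlier results of these data known, so their counts are descriptions. Chaperones and enzymes that fold heavy chains or trim peptides in the endoplasmic reticulum mostly fell with stimulation, as Tapbp did. Of 9, 6 fell and 1 rose in Batf-/- cells, and 5 fell and 3 rose in wild-type cells, where 23.2% and 23% of all genes fell. Calreticulin, Calr, fell (-0.83 in Batf-/- and -0.57 in wild-type cells), as did Hspa5 (-0.59 and -0.58), Erap1, the peptide-trimming aminopeptidase (-0.33 and -0.34), Ganab (-0.26 and -0.51) and Uggt1 (-0.25 and -0.30). The tapasin relative Tapbpl fell in Batf-/- cells (-0.35) and was at -0.30 in wild-type cells without passing. Prkcsh rose (0.38 and 0.46), and the chaperone Canx (0.38) and Pdia3 (0.25), a partner of tapasin, rose in wild-type cells, being at 0.18 and -0.03 without passing in Batf-/- cells.

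Cytosolic peptidases, which trim or destroy peptides before transport, rose. Of 8, 7 rose in Batf-/- and 5 in wild-type cells and none fell, where 23.8% and 22.4% of all genes rose. Npepps rose by 1.02 in Batf-/- and 0.90 in wild-type cells, Blmh by 0.66 and 0.51, Tpp2 by 0.51 and 0.30, Dpp8 by 0.41 and 0.50 and Nrd1 by 0.28 and 0.24. Lap3 (0.38) and Thop1 (0.36) passed in Batf-/- cells, and were at 0.34 and 0.26 without passing in wild type. Core proteasome subunits outside the catalytic pairs had 5 of 11 higher in Batf-/- and 4 of 11 in wild-type cells, with Psmb2 (0.71 and 0.64), Psma4 (0.51 and 0.47), Psma1 (0.33 and 0.30) and Psma2 (0.23 and 0.20) in both and Psmb1 (0.18) in Batf-/- cells. The proteasome activator gene Psme1 fell (-0.35 and -0.34), as did the assembly factor Psmg2 (-0.37 and -0.40), while Psmg1 (0.49 and 0.30) and the maturation factor Pomp (0.18 and 0.19) rose.

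Class I-like genes outside the classical heavy chains also moved in both directions. Of 11 measured, 3 rose and 5 fell in Batf-/- cells, where 23.8% of all genes rose and 23.2% fell. In wild-type cells 3 rose and 4 fell, where 22.4% and 23% did, and in both genotypes the 3 rises are near the share of all genes. H2-Q10 rose by 1.45 ± 0.18 in Batf-/- and 2.09 ± 0.20 in wild-type cells, and H2-Q2 by 1.79 ± 0.26 and 3.09 ± 0.30, although the naive means of H2-Q2 lay below the limit for dim probe sets and its probes may match relatives. H2-Q5 rose in wild-type cells (0.34), and Mr1, which presents vitamin metabolites, in Batf-/- cells (0.98). Hfe, which regulates iron uptake, fell to between 3.45 and 4.06 in Batf-/- and between 3.66 and 4.15 in wild-type day 3 arrays, against 5.84 to 7.02 in Batf-/- and 6.35 and 6.62 in wild-type naive arrays. Its day 3 values lay below the limit for dim probe sets, so the size of its fall is not resolved. Also lower were Cd1d1, which presents lipids (-1.75 and -1.51), the antibody receptor chain Fcgrt (-0.84 and -1.22), H2-T24 (-0.57 and -0.82) and, in Batf-/- cells, H2-M3 (-0.38). The difference between the genotypes in the change with stimulation passed for none of the 11 genes. The naive preparations also held RNA of other cell types, and its part in these falls was not tested. Between the genotypes at day 3, Cd1d1 passed lower in Batf-/- cells (-0.32 ± 0.07, limma, adjusted p = 0.0478). It was 1 of 11 in this list to do so, where 0.709% of all genes passed lower. Among 9 MHC class II genes 1 passed lower there, H2-Ob (-0.45 ± 0.08, limma, adjusted p = 0.0115).

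Among 20 measured regulators of class I genes, 8 rose and 9 fell in each genotype. Of all genes, 23.8% rose and 23.2% fell in Batf-/- cells, and 22.4% rose and 23% fell in wild-type cells. Ifng rose by 0.70 ± 0.08 in Batf-/- and 1.12 ± 0.09 in wild-type cells, and at day 3 it was higher in Batf-/- cells by 0.33 ± 0.07 (limma, adjusted p = 0.0498). Irf1, an interferon-induced activator of Tap1 and Psmb9, fell by 0.54 on the log2 scale in Batf-/- cells and by 0.38 in wild-type cells. Also higher were Irf8 (0.95 and 1.22), the cytokine signalling inhibitor Socs1 (0.83 and 0.78), the CCAAT-binding subunit Nfyb (0.77 and 0.67), Ifngr1 (0.72 and 0.60), Stat2 (0.67 and 0.86), Rfxank (0.51 and 0.35) and Rfxap (0.50 and 0.44), of which the last are parts of the RFX complex that recruits Nlrc5. Also lower were Irf9 (-0.98 and -0.96), Ifngr2 (-0.91 and -0.77), the class II transactivator Ciita (-0.72 and -0.41), Nfyc (-0.70 and -0.68), the kinases Jak2 (-0.67 and -0.76) and Jak1 (-0.50 and -0.70), the NF-kB subunit Rela (-0.58 and -0.75) and Creb1 (-0.18 and -0.25).

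Interferon gamma targets outside the pathway were not uniform either. Of 12, 3 rose and 5 fell in Batf-/- cells, where 23.8% of all genes rose and 23.2% fell, so that the 3 rises are near that share. In wild-type cells 6 rose and 5 fell, where 22.4% and 23% of all genes did. Igtp (0.42 and 0.90), Gbp2 (0.42 and 0.89) and Gbp7 (0.51 and 0.42) rose in both genotypes. Iigp1 (1.76), Gbp3 (0.65) and Gbp6 (0.48) rose in wild-type cells, and in Batf-/- cells they were at 0.27, 0.18 and 0.25 without passing. Cxcl9 (-3.20 and -2.71), Cxcl10 (-1.48 and -1.43), Icam1 (-0.91 and -1.06), Cd274 (-0.84 and -0.46) and Irgm1 (-0.80 and -0.52) fell in both. The differences between the genotypes in these changes did not pass for any of the 12 genes. For Iigp1, the difference was -1.49 ± 0.34 (limma, adjusted p = 0.0763).

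The 10 genes varied together between arrays of a group. After subtraction of the group means, all 45 pairs of genes correlated above 0 over the 13 arrays, with a median r of 0.64 and a range of 0.04 to 0.93, as a description of arrays that share the group means and the normalisation. The pair of transporter genes, Tap1 and Tap2, had the highest r (0.93). B2m, whose spread within groups was the smallest (SD 0.03), was in the pairs with the lowest values. Single arrays stood out across the genes. Batf-/- day 3 replicate 1 had the highest value of its group for 8 of the 10 genes, and wild-type day 3 replicate 4 for 9. All 10 genes were below the group mean in Batf-/- naive replicate 1 and above it in Batf-/- naive replicate 2. Batf itself was also highest in the first of these arrays (6.77, against 5.56 to 6.00 in the other Batf-/- day 3 arrays) and in the second (9.19, against 8.63 to 8.83 in the other wild-type day 3 arrays). Its part in the shared variation was not tested.

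**Figure D5:**
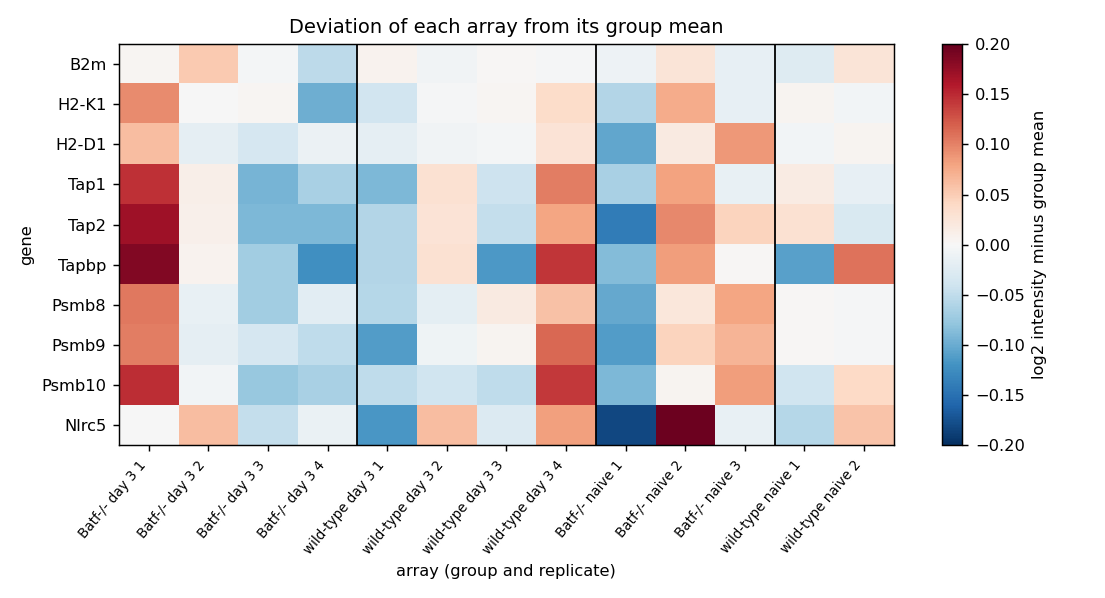
Deviation of each array from its group mean, in log2 units, for the 10 genes; columns are arrays by group and replicate, red is above and blue below the group mean. Batf-/- day 3 replicate 1 and wild-type day 3 replicate 4 are above their group mean in 9 of 10 genes, and Batf-/- naive replicate 1 is below it in all 10.

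Genes with the pattern most like that of the pathway were sought among 2526 genes whose group means span at least 1 log2 unit. For Nlrc5 these were 1300002E11Rik (Pearson r over 13 arrays 0.87), Dnah8 (0.84), Acpp (0.83), Klrg1 (0.82) and Sfxn2 (0.82). All 5 were higher in both naive groups than in both day 3 groups. For the mean of the 10 genes the highest r was 0.58 (S100a4), followed by Cxcr3 (0.47), Klrk1 (0.45), Iigp1 (0.44) and Btg2 (0.43). None of the 2526 candidates went above that of S100a4.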

How the data were processed

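The deposited table holds probe set intensity values. The authors used RMA, as the submitters' processing notes record without a version. The intensity values are linear and were converted to log2 here. Array medians were 31.5 to 32.5, and no further normalisation was applied. Gene names came from the platform annotation, and for a gene with several probe sets the brightest on average was taken. The means of the 4 groups were estimated for all 18193 genes, and separately to all 45037 probe sets that are not controls, with limma 3.58.1 in R 4.3.3, so that the groups share a spread. P-values are two-sided (eBayes) and were adjusted by Benjamini-Hochberg across the complete table. The fit was tested on simulated data. Named are the 10 members, every listed gene that passed in the comparison described (of the marker lists, those that passed between the genotypes or in the difference of changes), Psmb5, Psmb6, Psmb7, Irf1 and Ifng, and the 5 most alike genes. Of 190 listed genes 161 were measured. The members and lists were chosen with earlier results of these data known. Alternatives were another normalisation or centring, a filter on dim probe sets, averaging the probe sets of a gene, other eBayes settings, array weights, a replicate block, the compared groups alone and leaving out each array.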

Additional observations from a re-analysis of the deposited data

Results flagged for a closer look

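Of 54 sets of 4 day 3 values (27 probe sets in 2 genotypes), 5 held an array far from the other 3, where chance gives about 1 in 20. Psmb10 was at 11.19 in wild-type day 3 replicate 4, against 10.99 to 11.01 in the other wild-type day 3 arrays. A second, bright H2-D1 probe set was at 13.43 in Batf-/- day 3 replicate 1, against 13.31 to 13.32 in the other Batf-/- day 3 arrays. The same probe set was at 13.39 in wild-type day 3 replicate 4, against 13.43 in each of the other wild-type day 3 arrays. The less bright Psmb8 probe set was at 7.25 in Batf-/- day 3 replicate 3, against 7.10 to 7.12, and at 7.21 in wild-type day 3 replicate 3, against 6.91 to 6.95.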

How the results depend on the processing

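No called change of a member turned its direction under any alternative. The number of members that passed with stimulation stayed between 6 and 8 in Batf-/- and between 5 and 6 in wild-type cells when each array was left out. In Batf-/- cells 9 passed without dim probe sets and with an intensity trend, 8 with array weights and 6 with the compared groups alone. B2m passed there without dim probe sets, with the trend and with the mean of all probe sets (limma, adjusted p between 0.00863 and 0.0467), Nlrc5 without dim probe sets, with the trend and with weights (0.0151 to 0.0474), and H2-D1 did not with the compared groups alone (0.074). Between the genotypes, array quality weights gave 1 member at day 3 (Psmb10, 0.21), 1 in naive cells (Psmb9, 0.39) and 1 for the difference of the changes (Psmb9, -0.38), and an intensity trend gave 1 in naive cells (Psmb9), where leaving out an array gave 0 to 1. The H2-K1 call in wild-type cells was lost with another quantile normalisation (-0.16), and Nlrc5 passed in Batf-/- cells with it (-0.26). With the mean of all probe sets H2-D1 did not pass in Batf-/- cells (-0.12). Over all genes, 250 passed at day 3, 1306 with array weights, 689 with the compared groups alone and 125 with the replicate block, and 122 to 563 without an array (563 without Batf-/- naive replicate 1). In naive cells 196 passed, 459 with array weights, 87 with the block, and 97 to 627 without an array. With the compared groups alone 1 passed there, lower in Batf-/- cells, so that 0 higher calls were kept. For the difference of the changes 118 passed, 542 with array weights, 50 with the block, and 58 to 283 without an array. The naive counts rest on few arrays, with 627 genes when Batf-/- naive replicate 2 was left out and 97 when wild-type naive replicate 2 was. After subtraction of the group means, arrays of the same replicate number had r from -0.26 to 0.04 over 11 pairs. Of 4 Batf-/- day 3 arrays, 0 correlated best with the wild-type array of their number. The 2 wild-type naive arrays mirror each other after that subtraction, so the signs of their r are tied. With groups this small, these values cannot decide whether the numbers pair the samples. With the replicate block H2-K1 in wild-type (-0.20) and H2-D1 in Batf-/- cells (-0.18) did not pass and Nlrc5 in Batf-/- cells did (-0.21). The causes were not tested.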

Other observations

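The 3 probe sets assigned to a member and another gene at once gave these values. The probe set of H2-K1 and H2-D1 was at 11.33 to 11.55 in Batf-/- day 3 arrays and 11.47 to 11.65 in wild-type day 3 arrays, against 11.65 to 11.98 in Batf-/- naive and 11.75 to 11.86 in wild-type naive arrays. That of H2-Q5 and H2-K1 lay between 5.49 and 6.10 in all arrays, and that of H2-Q2, H2-D1 and a predicted gene between 4.79 and 5.27.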
